A study of Rattus norvegicus with 12 samples.

Results

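The response of heart muscle cells to phenylephrine (PE) was compared between cells given an siRNA against Slc25a26 and cells given a control siRNA. The measure is the difference between both PE effects, (siSlc25a26 PE minus siSlc25a26) minus (siNeg PE minus siNeg), and all 12 of the 12 deposited libraries enter it. The cells were cultured neonatal rat ventricular myocytes (NRVMs) from Sprague-Dawley rats, primary heart muscle cells kept in a dish, and RNA was sequenced from 3 libraries in each of 4 groups. Libraries labelled siNeg and siNeg PE came from cells transfected with a negative control siRNA, without or with PE, and libraries labelled siSlc25a26 and siSlc25a26 PE from cells transfected with the targeting siRNA, without or with PE. By the labels, PE was present for 36 h and was added 12 h after transfection. All groups share an siRNA transfection and culture in DMEM with insulin, transferrin and selenium. The series text calls the 3 libraries of a group independent biological samples. The labels name no further siRNA against Slc25a26, so an effect of losing Slc25a26 and an effect of that siRNA as such cannot be told apart.

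PE activates α1-adrenergic receptors, which signal through Gq, calcium and MAP kinases, and in NRVMs it causes hypertrophy, growth of the cell with new sarcomeres and return of fetal genes such as those of natriuretic peptides and skeletal actin. Actin assembly under PE releases cofactors of serum response factor (SRF), a transcription factor that binds CArG boxes in genes of actin, its binding proteins and the contractile apparatus. Slc25a26 encodes the carrier that brings S-adenosylmethionine, the methyl donor of the cell, into mitochondria. Interferon-stimulated genes encode antiviral proteins and are switched on through interferon-stimulated response elements, which are bound by STAT and IRF factors.

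Expression is given as CPM, the share of reads scaled to a common library size, from the rounded estimated counts divided by the normalised library size, and n is 3 libraries per group throughout. The PE effect is the log2 fold change of PE over no PE under one siRNA, and the difference is the PE effect in the libraries labelled siSlc25a26 less that in the siNeg libraries. A positive difference can arise from a larger rise, a smaller fall or a turn from fall to rise. Standard errors (SE) and p-values come from edgeR's quasi-likelihood test over all 12 libraries, adjusted over all genes tested. A gene was called when the PE effects differed more than 1.5-fold with an adjusted p-value under 0.05.

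The targeted gene was examined first. Slc25a26 measured 33.2, 31.6 and 29.3 CPM in siNeg, 113, 106 and 86.2 in siNeg PE, 15.8, 14.9 and 14.7 in siSlc25a26 and 102, 106 and 98.8 in siSlc25a26 PE. Without PE the knockdown libraries lay below all control libraries, whereas the libraries labelled siSlc25a26 PE overlapped siNeg PE, with a log2 fold change of 0.00 between them (adjusted p = 0.973). The label of the libraries labelled siSlc25a26 PE is therefore not borne out by the level of the targeted transcript, and every direction given below carries that limit. The paper that cites these data names an siRNA against Nap1l5, a nucleosome assembly protein, and other treatment times, whereas the deposited labels name Slc25a26, and the labels are followed here. Nap1l5 measured 2.54, 3.47 and 4.72 CPM in siNeg, 13.5, 15.9 and 19.4 in siNeg PE, 1.40, 1.95 and 2.75 in siSlc25a26 and 8.78, 8.19 and 6.76 in siSlc25a26 PE. Its siSlc25a26 PE libraries lay below all siNeg PE libraries (log2 fold change -1.04, adjusted p = 0.00203), and without PE the groups overlapped (log2 fold change -0.82, adjusted p = 0.0242). Which siRNA a library received was not tested otherwise. PE raised Slc25a26 by 1.70 in the siNeg arm and by 2.76 in the siSlc25a26-labelled arm, so the gene is itself among those with a called difference, 1.06 (SE 0.13, adjusted p = 0.000466).

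Depth and cell identity were then examined. Total counts lay between 24770972 and 28709049 per library, and the 10 most abundant genes took 6.12% to 10% of them, least in siSlc25a26 and most in siSlc25a26 PE. Cardiomyocyte markers were high in each library. Tnnt2, cardiac troponin T, lay between 4028 and 5778 FPKM (fragments scaled by gene length and library depth, which compare genes per length), while Ptprc, the common leukocyte antigen, reached at most 0.21 and Pecam1, an endothelial junction protein, at most 0.49 FPKM. Other members of the same lists were higher, with Lyz2 between 20.49 and 86.95, Cd68 between 5.15 and 15.72 and Tyrobp between 2.59 and 11.22 FPKM among leukocyte markers and Eng between 58.23 and 78.48 FPKM among endothelial ones. Fibroblast markers differed widely in level. Col1a1 lay between 886 and 2538 and Col3a1 between 363 and 1389 FPKM. Pdgfra lay between 9.97 and 15.02, Thy1 between 4.56 and 16.88, Fap between 0.11 and 1.25 and Mfap5 between 0.05 and 1.3 FPKM. Leaving out 1 library at a time gave between 521 called genes (without siNeg PE replicate 3) and 951 (without siNeg replicate 3), against 776 with all.

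Of 14097 genes tested, 776 (5.5%) had a called difference, 305 (2.16%) with a higher and 471 (3.34%) with a lower PE effect in the siSlc25a26-labelled arm. The largest class, 291 genes, fell more under PE in the siSlc25a26-labelled arm, with a median PE effect of -0.28 in the siNeg arm and -1.20 in the other. A stronger rise was found for 177 genes (medians 0.41 and 1.28). The rise was weaker in 124 genes (0.93 and 0.02) and the fall was weaker in 96 genes (-1.01 and -0.13). Only 82 genes responded in opposite directions with an adjusted p-value under 0.05 in each arm. Of these, 53 rose with siNeg and fell in the siSlc25a26-labelled arm and 29 did the reverse, and 6 called genes fell in none of these classes. Across all tested genes the PE effects of both arms, which share no library, had a Pearson r of 0.67 and a Spearman rho of 0.72, and 4865 genes moved in the same direction with an adjusted p-value under 0.05 in each arm against 113 in opposite directions.

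**Figure D1:**
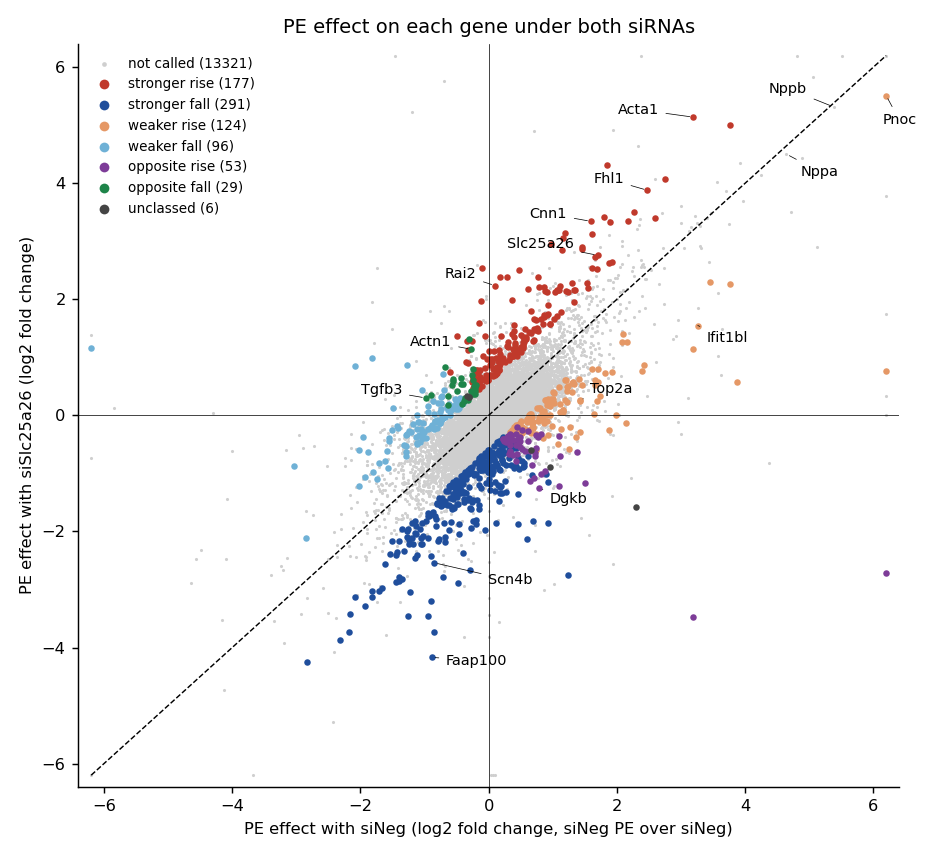
Each point is a gene, placed by its PE effect with siNeg (x axis, log2 fold change) and in the siSlc25a26-labelled arm (y axis, log2 fold change). Coloured points are the 776 called genes by response class, grey points the other genes tested, and the dashed line marks equal effects. The 21 genes beyond 6.2 on either axis are drawn at the edge. Most genes lie along the line, Acta1, Fhl1 and Cnn1 above it, and Pnoc, Ifit1bl and Top2a below it on the side of genes that rose less.

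The share of higher calls differed between edgeR on counts and limma on FPKM, which also changes the test, the scaling and the genes tested (12609). Of the called genes 39.3% were higher with counts scaled by TMM, against 23.2% (161 higher, 533 lower) with limma on log2(FPKM + 1) and 21.5% (195 higher, 712 lower) on log2(FPKM + 0.1), where the median difference of all genes was -0.13 and -0.15 in place of -0.05. The gene groups below are also given as their median difference less the median of all genes tested, with the range over all alternatives. Called shares were 32% of SRF cytoskeletal targets, 30% of collagens and matrix genes and 27.9% of interferon-stimulated genes. For sarcomere and Z-disc genes the share was 22.2%, for matricellular genes 20.7% and for hypertrophy markers 18.8%, against 5.5% of all genes tested. A test against the 1.5-fold line itself (glmTreat in edgeR) called 53 genes, 24 higher and 29 lower. Of 118 named genes with a call, 83 were called again without each library in turn and 28 under every alternative that tested them, among these Actn1, Cnn1, Fhl1, Hbegf, Tgfb3, Col6a3, Tnc, Scn4b, Kcnd2, Aldoc, Gbp4, RT1-S3 and Ifit1bl.

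The fetal and hypertrophy genes did not respond as a block. Acta1, the skeletal α-actin that fetal and overloaded ventricles express, measured 288, 303 and 217 CPM in siNeg, 3212, 2587 and 1586 in siNeg PE, 256, 188 and 129 in siSlc25a26 and 5807, 7074 and 7336 in siSlc25a26 PE. PE raised it in both arms without overlap, by 3.19 with siNeg and by 5.14 in the siSlc25a26-labelled arm on the log2 scale. Its difference was 1.95 (SE 0.36, adjusted p = 0.00488), so that its fold change was 3.86 times larger (95% interval of the log2 difference 1.17 to 2.73). Fhl1, a LIM protein of the sarcomere that takes part in stretch signalling, measured 319.6, 318 and 313 CPM in siNeg, 2045, 1939.5 and 1303 in siNeg PE, 282, 275 and 240.0 in siSlc25a26 and 3564, 3947 and 4219.8 in siSlc25a26 PE. It rose in both arms, with a difference of 1.40 (SE 0.19, adjusted p = 0.000899). Ctgf, the secreted connective tissue growth factor, measured 452, 431 and 477 CPM in siNeg, 506, 507 and 293 in siNeg PE, 423, 371 and 447 in siSlc25a26 and 984, 1058 and 1176 in siSlc25a26 PE. It overlapped between siNeg and siNeg PE but rose without overlap in the siSlc25a26-labelled arm, with a difference of 1.43 (SE 0.23, adjusted p = 0.00225).

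The natriuretic peptides showed no called difference. Nppa, the atrial natriuretic peptide, measured 129.7, 120.0 and 111 CPM in siNeg, 3174, 3409 and 2417 in siNeg PE, 331, 284 and 196 in siSlc25a26 and 5954, 6332 and 6129.9 in siSlc25a26 PE, and its PE effect was 4.64 with siNeg and 4.50 in the siSlc25a26-labelled arm (difference -0.14, 95% interval -0.62 to 0.35, adjusted p = 0.741). Nppb, the brain natriuretic peptide, had PE effects of 5.39 and 5.31 (difference -0.07, interval -0.88 to 0.74, adjusted p = 0.927). For Myh7, the slow β-myosin heavy chain, the difference was 0.10 (interval -0.09 to 0.29, adjusted p = 0.511) and for Myh6, the fast α-myosin heavy chain, 0.33 (interval 0.01 to 0.66, adjusted p = 0.177). Reads of these neighbouring and similar myosin genes may have been split by the counting. Nap1l5 had a difference of -0.22 (interval -0.97 to 0.53, adjusted p = 0.723). These intervals are wide for Nppa, Nppb and Nap1l5, and the tests do not show equal responses. Of 16 hypertrophy markers tested, 3 were called higher (Acta1, Ctgf and Fhl1) and 0 lower by edgeR, and their median difference was 0.25, against -0.05 over all genes tested (0.20 to 0.38 above that median over all alternatives).

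Genes of the actin cytoskeleton shared a positive difference, but their responses took several forms. Of the called ones 4 were stronger rises, 3 weaker falls and 1 a turn from fall to rise. All 25 SRF cytoskeletal targets had a positive difference, 8 of them called and 0 called lower, with a median of 0.52 (0.47 to 0.59 above the median of all genes over all alternatives). Between 1 and 20 of these targets were called higher over the alternatives that kept all libraries. Their median PE effect was -0.03 with siNeg and 0.33 in the siSlc25a26-labelled arm. Cnn1, calponin, which binds actin in smooth muscle and immature cardiomyocytes, measured 43.8, 39.8 and 37.9 CPM in siNeg, 123, 139.5 and 104 in siNeg PE, 18.3, 16.7 and 19.5 in siSlc25a26 and 180.5, 194 and 178 in siSlc25a26 PE. PE raised it without overlap in both arms, from a lower starting level to a higher end level in the siSlc25a26-labelled arm, with a difference of 1.75 (SE 0.14, adjusted p = 6.75e-05). Tln1, talin, which links integrins to actin, measured 583, 510.2 and 544 CPM in siNeg, 559.7, 536 and 478 in siNeg PE, 457, 409.8 and 439 in siSlc25a26 and 769.9, 766 and 768 in siSlc25a26 PE. It overlapped under siNeg and rose in the siSlc25a26-labelled arm, with a difference of 0.88 (SE 0.10, adjusted p = 0.000278). Acta2, smooth muscle actin, measured 1768, 1625 and 1714 CPM in siNeg, 1064, 986 and 787 in siNeg PE, 854, 793 and 967 in siSlc25a26 and 929, 836 and 906 in siSlc25a26 PE. Here PE lowered the level with siNeg only, and the difference of 0.88 (SE 0.14, adjusted p = 0.00233) was a weaker fall. The other called members were Myh9 (0.81), Myl9 (0.76), Flna (0.75), Zyx (0.63) and Cnn2 (0.63), which encode nonmuscle myosin and its light chain, filamin, zyxin and a further calponin. Myl9 and Zyx rose more in the siSlc25a26-labelled arm, and Cnn2 turned from fall to rise. Myh9 and Flna fell with siNeg and fell less or not at all in the other arm.

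**Figure D2:**
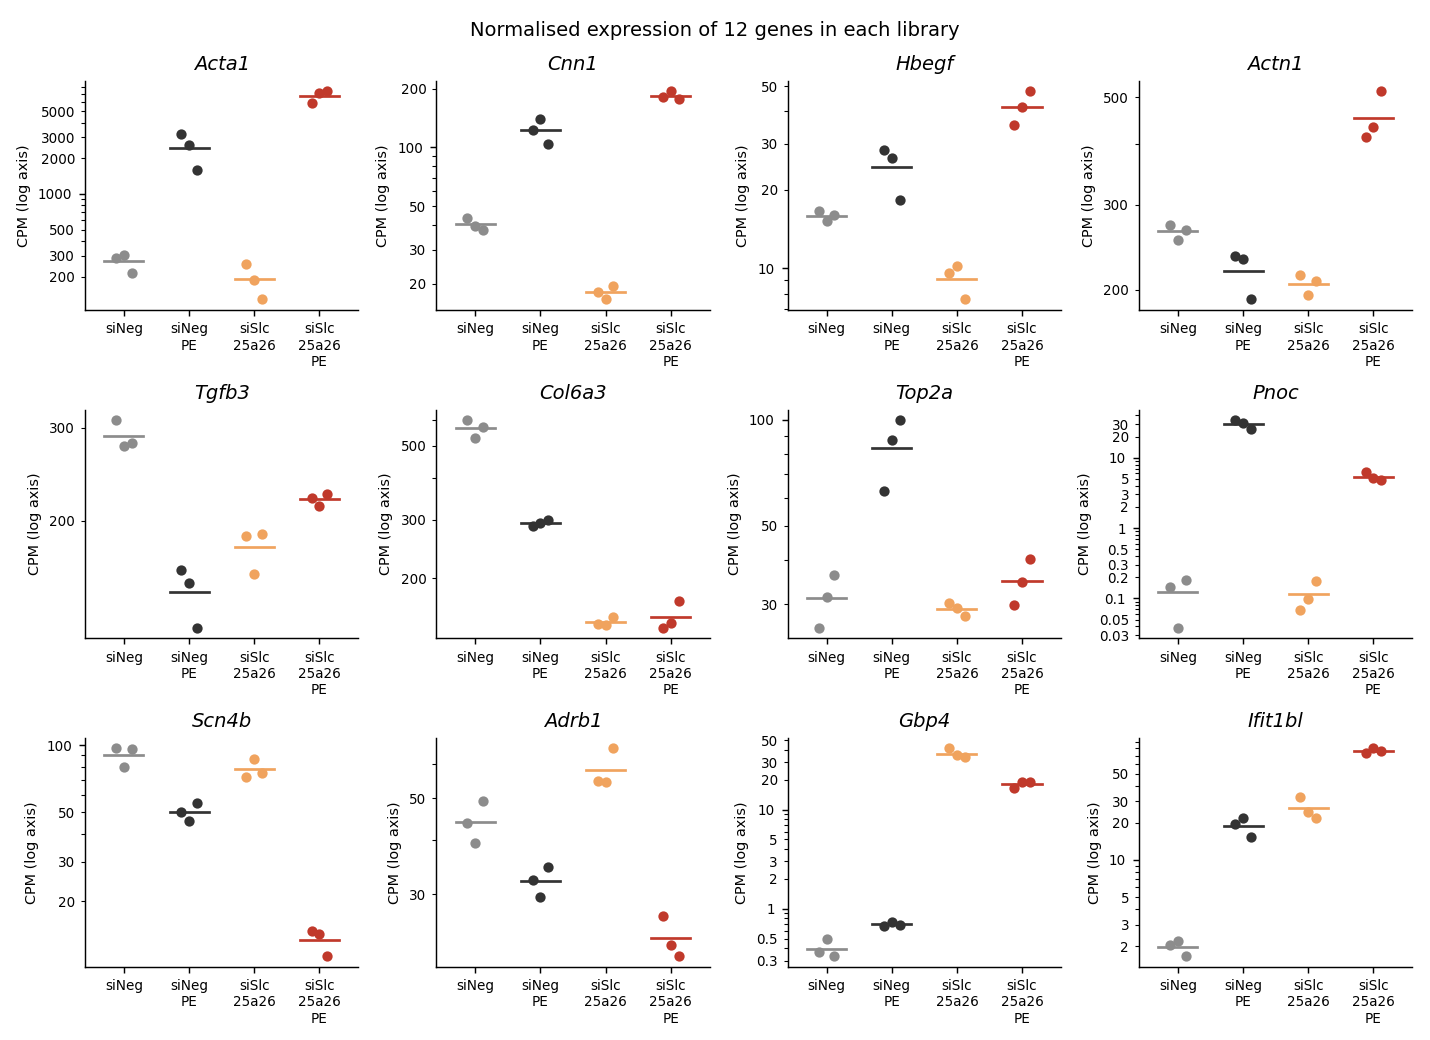
CPM of 12 genes on log axes, with 1 point per library, 3 libraries per group and a line at each group mean. Acta1, Cnn1 and Hbegf rose more and Top2a and Pnoc rose less in the siSlc25a26-labelled arm. Actn1 and Tgfb3 moved in opposite directions, Scn4b and Adrb1 fell more, Gbp4 fell from a raised level, and Ifit1bl rose less from a raised level.

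Sarcomere and Z-disc genes followed with 6 of 27 called higher and 0 lower, a median difference of 0.36 (0.30 to 0.45 above the median of all genes over all alternatives). Over the alternatives that kept all libraries, 0 to 16 were called higher. Cavin4, a caveolar protein of muscle, measured 2.61, 2.40 and 2.99 CPM in siNeg, 4.30, 4.98 and 4.51 in siNeg PE, 2.15, 1.89 and 3.13 in siSlc25a26 and 8.97, 10.8 and 13.3 in siSlc25a26 PE. All PE libraries lay above their untreated libraries, and the difference was 1.42 (SE 0.27, adjusted p = 0.00574). Tpm2, β-tropomyosin, fell with siNeg (-0.25) and rose in the siSlc25a26-labelled arm (0.70), a difference of 0.96 (SE 0.10, adjusted p = 0.000278). Myom2, an M-band protein, fell with siNeg (-0.75), while its libraries overlapped in the other arm, and the difference was 1.06 (SE 0.19, adjusted p = 0.00387). Actc1, cardiac actin (0.92), Flnc, the muscle filamin (0.67), and Synpo2l (0.63) rose more. Among 18 intercalated disc genes, 1 was higher and 1 lower (11.1% called, against 5.5% of all genes tested). Ctnna1, α-catenin, which ties cadherins to actin, measured 824, 829 and 883 CPM in siNeg, 884, 903 and 848 in siNeg PE, 729, 748 and 764 in siSlc25a26 and 1450.3, 1439.7 and 1511 in siSlc25a26 PE, with overlap under siNeg and none in the other arm (difference 0.92, SE 0.068, adjusted p = 6.75e-05). Gja5, the atrial and conduction system gap junction protein connexin 40, fell in both arms and fell more in the siSlc25a26-labelled arm (-1.18 and -2.21, difference -1.03, SE 0.19, adjusted p = 0.00506). Of 12 cardiomyocyte markers 0 were called by edgeR, DESeq2 or limma-voom (5 higher and 1 lower at an unadjusted p under 0.05 in edgeR).

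The sequences upstream of Acta1 and Fhl1 are shown because both genes rose several times more in the siSlc25a26-labelled arm and hold a CArG box, the element bound by SRF, shown in capitals. Each run is the 250 bases before the transcription start, 5′ to 3′ on the strand of the gene, from RefSeq on build GRCr8. The Acta1 run lies at chr19:68784195-68784444, minus strand, and the Fhl1 run at chrX:139638246-139638495, plus strand, before the start of the 2 in the table that has the box. Of all 33469 upstream runs of the same length in the table, 1.5% held a CArG box on either strand. It was found for 5 of the 20 SRF cytoskeletal targets with a run in the table (25%) and for 1 of 6 called ones (16.7%). These letters are a description and not a measured binding site.
Acta1: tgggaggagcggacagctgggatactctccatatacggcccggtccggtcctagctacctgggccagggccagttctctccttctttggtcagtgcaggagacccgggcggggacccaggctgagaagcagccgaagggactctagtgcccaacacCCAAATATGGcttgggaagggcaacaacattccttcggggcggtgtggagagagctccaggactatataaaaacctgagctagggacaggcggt
Fhl1: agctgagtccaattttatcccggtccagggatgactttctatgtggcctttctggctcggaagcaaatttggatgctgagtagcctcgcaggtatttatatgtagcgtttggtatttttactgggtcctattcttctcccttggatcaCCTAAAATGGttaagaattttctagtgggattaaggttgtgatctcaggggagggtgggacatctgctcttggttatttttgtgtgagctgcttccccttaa

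Of 30 collagens and matrix genes 9 were called with a higher PE effect in the siSlc25a26-labelled arm, 5 of them as weaker falls, and 0 with a lower one, while glmTreat called 1 higher. The summed level of all 30 was 46322 to 51476 CPM in siNeg and 29586 to 30898 in siNeg PE. In siSlc25a26 it was 27662 to 30111 and in siSlc25a26 PE 23820 to 25059, the lowest. Their median PE effect was -0.53 with siNeg and -0.11 in the other arm, a smaller fall from a lower base. Of the 30, 28 had a positive difference, with a median of 0.48 (0.42 to 0.56 above the median of all genes over all alternatives). Col6a3, a chain of collagen VI, measured 599, 529.8 and 570.3 CPM in siNeg, 287, 294 and 299 in siNeg PE, 146, 145 and 153 in siSlc25a26 and 142, 146 and 171 in siSlc25a26 PE. It fell without overlap with siNeg, while the libraries of the other arm overlapped at a level below both control groups (difference 1.00, SE 0.10, adjusted p = 0.000153). Col15a1, a basement membrane collagen, overlapped with siNeg and rose in the other arm from a lower base, with PE effects of 0.08 and 1.12 (difference 1.04, SE 0.12, adjusted p = 0.000366). Col12a1, a fibril-associated collagen, fell with siNeg and rose in the siSlc25a26-labelled arm (-0.40 and 0.54, difference 0.94, SE 0.16, adjusted p = 0.0031). The other called members were Fn1 (0.77), Col5a1 (0.74), Lox (0.71), Col4a2 (0.70), Col4a1 (0.69) and Fbn2 (0.60). Fn1, Col5a1, Lox and Fbn2 fell with siNeg and fell less or not at all in the other arm. Col4a2 rose more there, and Col4a1 turned from fall to rise.

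Matricellular and remodelling genes showed 6 called higher and 0 lower of 29, with a median difference of 0.32 (0.24 to 0.43 above the median of all genes). Their median PE effect was -0.48 with siNeg and -0.25 in the siSlc25a26-labelled arm. Without PE their summed level was 5870 to 6252 CPM in siNeg and 4064 to 4345 in siSlc25a26. Tnc, tenascin C, a matrix protein of injured myocardium, measured 238, 219 and 223 CPM in siNeg, 88.4, 85.4 and 79.6 in siNeg PE, 131, 116 and 128 in siSlc25a26 and 102, 105 and 124 in siSlc25a26 PE. It fell in siNeg PE below all other groups, with a difference of 1.24 (SE 0.11, adjusted p = 0.000105). Ltbp2, which binds microfibrils, fell by 1.51 with siNeg and by 0.25 in the siSlc25a26-labelled arm on the log2 scale (difference 1.27, SE 0.12, adjusted p = 0.000153). Cyr61, a secreted partner of integrins and target of YAP and SRF, measured 201, 188 and 196 CPM in siNeg, 199, 198 and 151 in siNeg PE, 166, 169 and 176 in siSlc25a26 and 336, 342 and 362 in siSlc25a26 PE. It rose in the siSlc25a26-labelled arm and overlapped with siNeg (difference 1.12, SE 0.12, adjusted p = 0.000278). Thbs1, thrombospondin (1.09), turned from fall to rise, and Plaur, the urokinase receptor (0.87), rose more in that arm.

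Markers of other cells moved beside these genes. In bulk RNA fewer cells of a type and less RNA per cell cannot be told apart. The summed level of 12 fibroblast markers was 18964 to 21216 CPM in siNeg, 9868 to 10337 in siNeg PE, 11209.8 to 12612 in siSlc25a26 and 7846 to 8489.6 in siSlc25a26 PE. It was lowest in siSlc25a26 PE, 0 of 12 members were called by edgeR, DESeq2 or limma-voom in either direction (4 higher and 1 lower at an unadjusted p under 0.05 in edgeR), and the median difference was 0.15. For 12 mural cell markers the sum was 3799.7 to 4115 CPM in siNeg, 1973 to 2441 in siNeg PE, 2059 to 2373 in siSlc25a26 and 2243 to 2342 in siSlc25a26 PE, and 4 were called higher. These were Cnn1, Acta2, Cspg4, a proteoglycan of pericytes (1.10), and Notch3, a receptor of vascular smooth muscle (0.59). Cspg4 measured 209, 182 and 212 CPM in siNeg, 208, 214 and 186 in siNeg PE, 201, 202 and 197 in siSlc25a26 and 423, 425 and 448 in siSlc25a26 PE, overlapping with siNeg and rising in the other arm. Endothelial markers gave 1 of 10 called higher (Flt1, a VEGF receptor, 0.70), with sums of 254 to 268 CPM in siNeg, 226 to 254 in siNeg PE, 198 to 224 in siSlc25a26 and 258 to 263 in siSlc25a26 PE. Of 12 leukocyte markers, 3 were called higher (Csf1r 0.82, Itgam 1.03 and C1qa 1.05), all as weaker falls, with sums of 118 to 141 CPM in siNeg, 64.7 to 74.7 in siNeg PE, 66.3 to 75.3 in siSlc25a26 and 44.9 to 54.6 in siSlc25a26 PE. The calls of Itgam and C1qa were made in 5 and 2 of the 12 fits that each left out a library, that of Notch3 in 6 and that of Flt1 in 11. Called shares were 33.3% of the mural, 10% of the endothelial and 25% of the leukocyte markers, against 5.5% of all genes tested. The part of these cells in the matrix and actin results was not tested.

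Secreted growth factors had 7 of 45 called higher and 2 lower (20% called, against 5.5% of all genes tested). Without siSlc25a26 replicate 2 the number called higher was 4. The number called lower was 4 without siNeg replicate 3, 3 without siNeg PE replicate 1 or 2, 2 without siSlc25a26 replicate 2 or siSlc25a26 PE replicate 3, and 1 without any other single library. Hbegf, a ligand of the EGF receptor that cardiomyocytes shed under PE, measured 16.6, 15.2 and 16.1 CPM in siNeg, 28.4, 26.6 and 18.3 in siNeg PE, 9.57, 10.3 and 7.61 in siSlc25a26 and 35.6, 41.7 and 47.7 in siSlc25a26 PE. It started lower and ended higher in the siSlc25a26-labelled arm, with a difference of 1.57 (SE 0.22, adjusted p = 0.00121). Tgfb3, a TGF-β ligand, measured 310.4, 277 and 281 CPM in siNeg, 162, 153 and 126 in siNeg PE, 188, 159 and 189 in siSlc25a26 and 221, 213 and 225 in siSlc25a26 PE. PE lowered it with siNeg and raised it in the siSlc25a26-labelled arm, with no overlap in either, and the difference was 1.28 (SE 0.13, adjusted p = 0.000178). Fstl3, an activin antagonist, had a difference of 1.16 (SE 0.20, adjusted p = 0.00299), and Tgfb2 (0.91) and Bmp2 (0.82) rose more, while Gdf6 (0.64) fell less. Angpt1, the ligand of the Tie2 receptor (-1.09), and Wnt5a (-0.84) fell more.

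The 4 genes with the largest called differences in each response class, among those with at least 50 counts in every library of their highest group, do not belong to a single pathway. Rai2, a retinoic acid-induced gene, measured 8.01, 7.21 and 7.53 CPM in siNeg, 9.23, 8.52 and 6.63 in siNeg PE, 4.77, 4.86 and 4.21 in siSlc25a26 and 20.4, 22.2 and 22.7 in siSlc25a26 PE. It overlapped with siNeg and rose without overlap in the siSlc25a26-labelled arm (difference 2.14, SE 0.17, adjusted p = 6.75e-05). Dusp26, a dual-specificity phosphatase, measured 0.906, 0.801 and 0.664 CPM in siNeg, 0.995, 1.01 and 0.679 in siNeg PE, 0.749, 0.596 and 0.452 in siSlc25a26 and 2.69, 3.06 and 3.71 in siSlc25a26 PE, with the same kind of pattern at a low level (difference 2.21, SE 0.36, adjusted p = 0.0024). Ankrd23, a muscle ankyrin repeat protein that binds titin (1.99, SE 0.34, adjusted p = 0.00316), and Bean1 (2.10, SE 0.25, adjusted p = 0.000427) completed the stronger rises.

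Among stronger falls, Faap100, a subunit of the Fanconi anaemia core complex, measured 13.9, 14.3 and 12.4 CPM in siNeg, 8.96, 5.91 and 7.03 in siNeg PE, 4.05, 5.49 and 2.64 in siSlc25a26 and 0.117, 0.238 and 0.309 in siSlc25a26 PE. It was lowest in siSlc25a26 PE (difference -3.28, SE 0.45, adjusted p = 0.000973). Reg3b, a secreted lectin, measured 57.9, 40.2 and 33.9 CPM in siNeg, 28.6, 34.4 and 32.2 in siNeg PE, 73.96, 131 and 71.8 in siSlc25a26 and 14.01, 13.4 and 9.82 in siSlc25a26 PE. Its libraries overlapped with siNeg and fell without overlap in the siSlc25a26-labelled arm (difference -2.42, SE 0.34, adjusted p = 0.00115). Misp, an actin-binding protein of the mitotic spindle, was near the detection limit with siNeg, at 1 to 6 counts per library, and fell from 3.44 to 4.21 CPM to 0.702 to 1.12 CPM in the other arm (-2.74, SE 0.59, adjusted p = 0.0113). Pik3r6, a regulatory subunit of phosphoinositide 3-kinase γ, had a difference of -2.52 (SE 0.52, adjusted p = 0.00816).

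Among weaker rises, Pnoc, the precursor of the peptide nociceptin, measured 0.145, 0.0381 and 0.184 CPM in siNeg, 34.5, 31.1 and 25.2 in siNeg PE, 0.0681, 0.0993 and 0.174 in siSlc25a26 and 6.16, 5.13 and 4.83 in siSlc25a26 PE. It was near the detection limit without PE in both arms, rose without overlap in both, and reached less in siSlc25a26 PE than in siNeg PE. The difference was -2.37 (SE 0.66, adjusted p = 0.037), a call made in 5 of 12 fits that each left out a library. Tmem100, a membrane protein, measured 0.798, 0.687 and 0.701 CPM in siNeg, 3.66, 3.81 and 2.20 in siNeg PE, 2.01, 2.78 and 2.78 in siSlc25a26 and 1.91, 2.27 and 2.71 in siSlc25a26 PE, a rise with siNeg only (difference -2.27, SE 0.34, adjusted p = 0.00159). Poln, DNA polymerase ν, had a difference of -3.30 (SE 0.49, adjusted p = 0.00159). Ddx52, an RNA helicase, had 0 counts in the 3 siNeg libraries and 1.35, 3.50 and 0.838 CPM in siNeg PE, at least 16.6-fold higher against 3 counts per library, whereas the other arm overlapped at 2.56, 3.31 and 2.75 CPM without PE and 2.73, 7.71 and 4.21 with PE. Its fitted difference has no interpretable size, and the adjusted p was 0.0134 in edgeR.

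The weaker falls named here were all expressed below 10 CPM. Trim66, a tripartite motif protein, had a difference of 1.48 (SE 0.29, adjusted p = 0.00719) and fell from 2.80 to 3.52 CPM in siNeg to 1.40 to 1.60 CPM in siNeg PE. Kcnt1, a sodium-activated potassium channel, had 29 counts in siNeg and 3 in siNeg PE in all, a ratio of 9.07 with a counting interval of 2.81 to 46.5, and fell from 7.49, 7.18 and 7.19 to 3.55, 4.01 and 4.33 CPM in the other arm (adjusted p of the difference 0.0429 in edgeR). This call was made in 3 of the 12 fits that each left out a library, and on log2(FPKM + 1) without a filter the difference was -0.36. Fabp4, a lipid chaperone of fat cells, macrophages and capillaries, fell with siNeg from 3.15, 2.78 and 1.92 to 0.677, 0.778 and 0.559 CPM (difference 1.58, SE 0.46, adjusted p = 0.0438, called in 2 of 12 such fits). For BGIG10116_30870, a transcript without a gene name, the difference was 2.81 (SE 0.69, adjusted p = 0.0217) with 9 of 12. Its PE effect was -1.82 with siNeg and 0.99 in the other arm, where the libraries with and without PE overlapped.

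**Figure D3:**
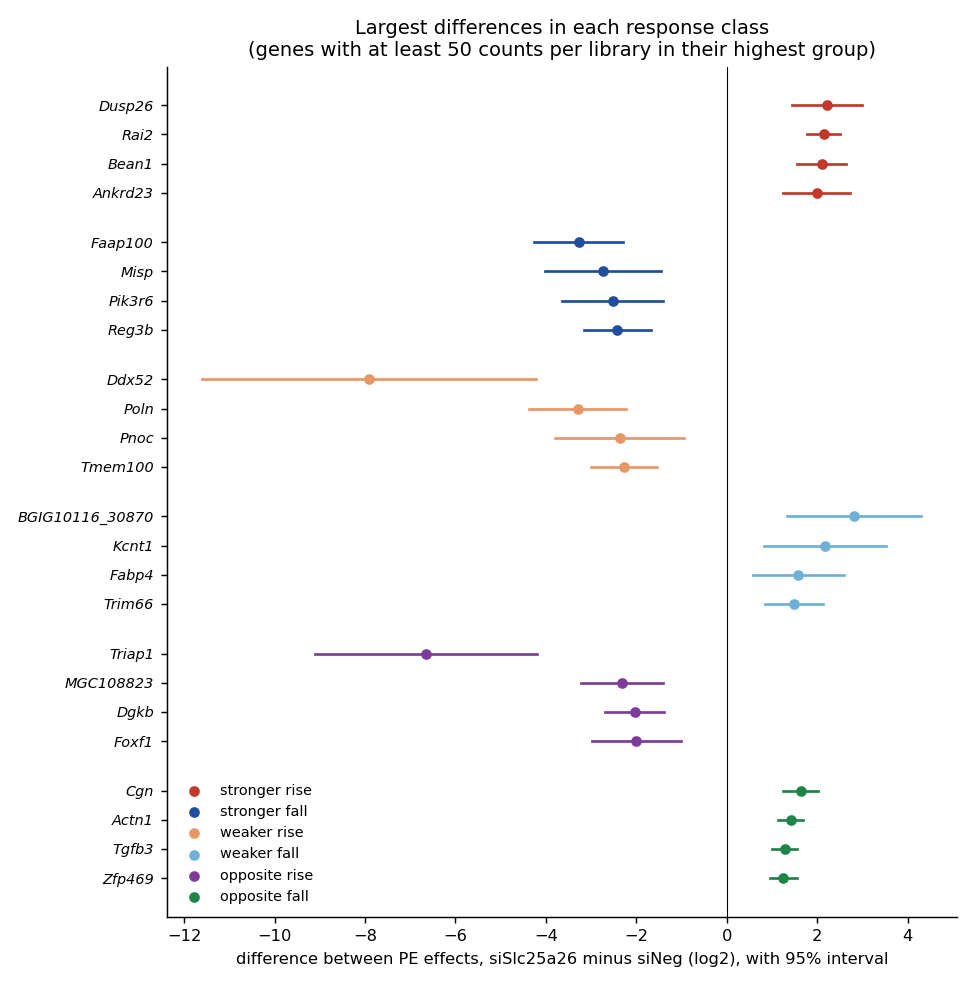
Difference between PE effects (x axis, log2, siSlc25a26-labelled arm minus siNeg arm) for the 4 called genes with the largest differences in each response class, among those with at least 50 counts in every library of their highest group. Points are estimates and bars 95% intervals from edgeR, wide for Ddx52 and Triap1, which are at or near 0 counts in some libraries, and narrow for Rai2, Actn1, Tgfb3 and Zfp469.

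Genes that moved in opposite directions include Actn1, the α-actinin that crosslinks actin outside the sarcomere. It measured 272, 254 and 266 CPM in siNeg, 235, 231 and 191 in siNeg PE, 215, 195 and 209 in siSlc25a26 and 413, 435 and 514 in siSlc25a26 PE, and its PE effect was -0.27 with siNeg and 1.14 in the siSlc25a26-labelled arm. All siSlc25a26 PE libraries lay above every other library (difference 1.41, SE 0.13, adjusted p = 0.000114). Cgn, cingulin of tight junctions (1.63, SE 0.18, adjusted p = 0.000282), and Zfp469, a zinc finger protein (1.25, SE 0.14, adjusted p = 0.000295), were also classed as a turn from fall to rise. The siNeg and siNeg PE libraries of Cgn overlapped, and its fall there had an adjusted p of 0.0486 in edgeR. In the reverse direction, Dgkb, a diacylglycerol kinase, measured 5.69, 5.95 and 9.15 CPM in siNeg, 8.84, 11.7 and 15.3 in siNeg PE, 12.6, 16.97 and 14.9 in siSlc25a26 and 7.10, 5.76 and 5.76 in siSlc25a26 PE. The siNeg groups overlapped and the others did not (difference -2.04, SE 0.30, adjusted p = 0.00151). Foxf1, a forkhead factor of mesenchyme, rose with siNeg from 0.0738 to 0.254 CPM to 0.359 to 0.597 CPM and fell from 2.18 to 3.09 CPM to 1.60 to 1.79 CPM in the other arm (-2.005, SE 0.45, adjusted p = 0.0148). Triap1, an inhibitor of apoptosis induced by p53, measured 0.254, 0.458 and 0.627 CPM in siNeg, 0.398, 6.77 and 5.07 in siNeg PE, 6.23, 6.68 and 5.87 in siSlc25a26 and 0.117, 0.238 and 1.31 in siSlc25a26 PE. In siNeg PE 1 library lay within the range of the untreated siNeg libraries, so that these groups overlapped, and the fitted difference was -6.66 (SE 1.14, adjusted p = 0.00308). MGC108823, an unnamed rat gene, measured 0.627 to 0.943 CPM in siNeg, 0.599 to 2.23 in siNeg PE, 125 to 145 in siSlc25a26 and 51.9 to 65.4 in siSlc25a26 PE (difference -2.32, SE 0.42, adjusted p = 0.00416).

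Of 54 cell cycle and replication genes 7 were called lower and 0 higher (13%, against 5.5% of all genes tested), and glmTreat called 0. With siNeg the median PE effect over these genes was 0.58, and in the siSlc25a26-labelled arm it was 0.22. A negative difference was found for 49 of them, with a median of -0.35 (-0.35 to -0.22 relative to all genes over all alternatives). Top2a, the topoisomerase of dividing cells, measured 25.7, 31.5 and 36.3 CPM in siNeg, 62.6, 87.6 and 99.8 in siNeg PE, 30.3, 29.3 and 27.8 in siSlc25a26 and 29.8, 34.8 and 40.2 in siSlc25a26 PE. It rose with siNeg and overlapped in the siSlc25a26-labelled arm (difference -1.15, SE 0.23, adjusted p = 0.00732). Ccne2, cyclin E2 (-0.93, SE 0.25, adjusted p = 0.0314), and Ect2, which drives cytokinesis (-0.72, SE 0.21, adjusted p = 0.0456), rose in both arms and less in the latter. These calls were made in 4 and 4 of the 12 fits that each left out a library. Rrm2 (-0.72), Nusap1 (-0.64), E2f7 (-0.62) and Ttk (-0.62) also rose less. The number of called members was 7 with all libraries, 2 without siSlc25a26 replicate 2, 3 without replicate 2 of siNeg PE or of siSlc25a26 PE, 4 without siNeg replicate 2, siNeg replicate 3, siNeg PE replicate 3 or siSlc25a26 PE replicate 1, and 12 without siSlc25a26 PE replicate 3. Which cells of the culture carried these transcripts was not tested.

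Ion channels and receptors of the mature myocyte were among the lower calls. Of 29 ion channel genes 4 were called lower and 1 higher, 17.2% against 5.5% of all genes tested, with a median difference of -0.26. Scn4b, a β-subunit of the cardiac sodium channel, measured 96.8, 79.7 and 95.7 CPM in siNeg, 50.1, 45.9 and 54.98 in siNeg PE, 71.8, 86.9 and 75.3 in siSlc25a26 and 14.7, 14.3 and 11.3 in siSlc25a26 PE. It fell without overlap in both arms, to the lowest level in siSlc25a26 PE (difference -1.69, SE 0.16, adjusted p = 0.000137). Kcnd2, a subunit of the transient outward potassium current, measured 2.83, 2.71 and 3.32 CPM in siNeg, 3.86, 4.82 and 5.15 in siNeg PE, 2.79, 2.71 and 2.40 in siSlc25a26 and 1.17, 1.27 and 1.16 in siSlc25a26 PE. It rose with siNeg and fell in the siSlc25a26-labelled arm (difference -1.77, SE 0.22, adjusted p = 0.00054). Kcnj2, the inward rectifier channel (-0.82, SE 0.18, adjusted p = 0.0128), and Cacna2d2, an auxiliary calcium channel subunit (-0.61, SE 0.094, adjusted p = 0.0019, called in 9 of 12 fits that left out a library), were lower. Kcnk1, a background potassium channel at 0.240 to 0.954 CPM, was higher (1.63, SE 0.41, adjusted p = 0.0255, called in 5 of 12).

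Receptors for catecholamines were among the stronger falls. Of 26 adrenergic and G-protein signalling genes 3 were called lower and 0 higher, 11.5% against 5.5% of all genes tested. The median difference of that list was -0.12, against -0.05 over all genes tested. Adra1b, an α1 receptor activated by PE, measured 112, 117 and 122 CPM in siNeg, 61.7, 55.5 and 68.3 in siNeg PE, 95.7, 95.05 and 104 in siSlc25a26 and 33.9, 28.2 and 26.3 in siSlc25a26 PE. Adra1d, another α1 receptor, fell by 1.28 with siNeg and by 2.10 in the siSlc25a26-labelled arm on the log2 scale (difference -0.82, SE 0.17, adjusted p = 0.00898). Adrb1, the main β receptor of cardiomyocytes, measured 43.9, 39.4 and 49.2 CPM in siNeg, 32.3, 29.6 and 34.7 in siNeg PE, 54.8, 54.6 and 65.3 in siSlc25a26 and 26.7, 22.9 and 21.5 in siSlc25a26 PE. For Adra1b and Adrb1 no PE library overlapped its untreated group in either arm, and the differences were -0.81 (SE 0.13, adjusted p = 0.00233) and -0.84 (SE 0.15, adjusted p = 0.00396). Of 20 calcium handling genes (10% called, median difference -0.10), 2 were lower and 0 higher. These were Camk2d, the cardiac calmodulin kinase (-0.60, SE 0.14, adjusted p = 0.0193, called in 7 of 12 fits that left out a library), and Hrc, which binds calcium in the sarcoplasmic reticulum (-0.61, SE 0.10, adjusted p = 0.0031, 6 of 12).

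Interferon-stimulated genes stood on different starting levels in both arms. Their summed level over 68 genes was 1255 to 1425 CPM in siNeg, 1231 to 1320.5 in siNeg PE, 17262 to 18479 in siSlc25a26 and 11474 to 12327 in siSlc25a26 PE, so the PE effect in the siSlc25a26-labelled arm was measured from a raised base. Of the 68 genes 19 were called lower and 0 higher, and 61 had a negative difference, with a median of -0.50 (-0.62 to -0.41 relative to all genes over all alternatives). Among the called genes 10 were stronger falls, 5 rose with siNeg and fell in the other arm, and 4 were weaker rises. Gbp4, a guanylate-binding protein, measured 0.363, 0.496 and 0.332 CPM in siNeg, 0.677, 0.739 and 0.679 in siNeg PE, 41.3, 35.2 and 33.5 in siSlc25a26 and 16.5, 19.1 and 18.9 in siSlc25a26 PE. It rose with siNeg at a low level and fell in the siSlc25a26-labelled arm, with no overlap in either (difference -1.83, SE 0.25, adjusted p = 0.00101). Ifit1bl, of the IFIT family that binds viral RNA, measured 2.03, 2.21 and 1.66 CPM in siNeg, 19.6, 21.9 and 15.3 in siNeg PE, 32.2, 24.6 and 22 in siSlc25a26 and 73.98, 80.1 and 76.6 in siSlc25a26 PE. It rose without overlap in both arms, and the difference of -1.71 (SE 0.24, adjusted p = 0.000973) was a weaker rise. Mx1, a dynamin-like antiviral GTPase, measured 2.14, 2.21 and 1.55 CPM in siNeg, 4.02, 1.32 and 1.72 in siNeg PE, 807, 638 and 639.5 in siSlc25a26 and 283, 333 and 332 in siSlc25a26 PE. It overlapped with siNeg and fell in the other arm (difference -1.39, SE 0.39, adjusted p = 0.0378), but the call was made in 3 of the 12 fits that each left out a library, with differences between -1.68 and -0.76, and not by DESeq2 or limma-voom.

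The other 16 called members ran from -1.13 for Ifit3 to -0.60 for Parp14 and included Ddx60 (-1.12), Samhd1 (-1.07), Slfn2 (-1.04), Slfn5 (-1.03), Ifitm3 (-0.98), Eif2ak2 (-0.95), Apol9a (-0.88), Ifit2 (-0.84), Rsad2 (-0.81), Ube2l6 (-0.77), Tor3a (-0.69), Gbp5 (-0.66), Znfx1 (-0.65) and Cmpk2 (-0.64). Many of these belong to families of similar genes, and the counting could have split their reads. Without siSlc25a26 replicate 1 the number of called members was 12, and without any other single library 13 to 18. On log2 FPKM it was 32 to 39, and by glmTreat 2. Interferon pathway signalling genes gave 4 of 36 lower and 0 higher (11.1% called, against 5.5% of all genes tested). Socs1, a feedback inhibitor of JAK kinases, measured 2.57, 3.05 and 1.99 CPM in siNeg, 1.87, 1.59 and 1.92 in siNeg PE, 20, 14.6 and 15.1 in siSlc25a26 and 5.50, 6.48 and 5.18 in siSlc25a26 PE. It fell without overlap in both arms (difference -1.03, SE 0.25, adjusted p = 0.022). Socs3, its relative (-0.86, SE 0.14, adjusted p = 0.00233), Irf1, a transcription factor of interferon genes (-0.72, SE 0.12, adjusted p = 0.00253), and Ifih1, the RNA sensor MDA5 (-0.65, SE 0.19, adjusted p = 0.0465, called in 3 of 12 fits that left out a library), were the others.

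Antigen presentation genes showed 5 of 28 lower and 0 higher (17.9% called), with a median difference of -0.26. RT1-S3, a rat class Ib MHC gene, measured 17.8, 20.3 and 16.01 CPM in siNeg, 32.1, 30.5 and 23.6 in siNeg PE, 909, 878 and 928 in siSlc25a26 and 534, 509 and 449.5 in siSlc25a26 PE. It rose with siNeg and fell in the siSlc25a26-labelled arm, with no overlap in either (difference -1.53, SE 0.15, adjusted p = 0.000178). RT1-T24-1 (-1.63, SE 0.23, adjusted p = 0.00103) and RT1-T24-4 (-0.86, SE 0.10, adjusted p = 0.000295), of the same large family, overlapped with siNeg and fell in the other arm. Psmb9, a catalytic subunit of the immunoproteasome (-0.69, SE 0.15, adjusted p = 0.0126), and Nlrc5, the activator of class I genes (-0.63, SE 0.17, adjusted p = 0.0374, called in 2 of 12 fits that left out a library), fell more. MHC genes are near copies of each other, so the split of reads among them is uncertain. Of 24 chemokine and cytokine genes, Cxcl1, which attracts neutrophils (-0.76, SE 0.17, adjusted p = 0.0137), and Cxcl6 were lower and 0 were higher. The called share of that list was 8.33%, against 5.5% of all genes tested. Cxcl6 had 1 count in siNeg and 6 in siNeg PE in all (ratio 6.40, counting interval 0.776 to 294) and fell from 1.29, 1.06 and 0.834 to 0.468, 0.238 and 0.348 CPM in the other arm. NF-κB genes gave 2 of 22 lower and 1 higher (13.6% called, against 5.5% of all genes tested). Vcam1, a leukocyte adhesion molecule (-0.90, SE 0.13, adjusted p = 0.00125), and Birc3, an inhibitor of apoptosis (-0.92, SE 0.18, adjusted p = 0.00652), were lower and Ptgs2, cyclooxygenase 2 (0.84, SE 0.18, adjusted p = 0.0114), higher.

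The upstream sequences of 4 of these genes are shown because they hold an interferon-stimulated response element, written GAAA, any 2 bases and GAAA on either strand, and their PE responses took different forms: Gbp4 and RT1-S3 rose with siNeg and fell in the other arm, Ifit1bl rose less, and Socs1 fell more. Capitals mark the element, which overlaps a further copy in Socs1. Each run is the 250 bases before the start on build GRCr8 of RefSeq, 5′ to 3′ on the strand of the gene: Gbp4 at chr2:233978236-233978485, plus strand, RT1-S3 at chr20:2675278-2675527, plus strand, Ifit1bl at chr1:241543556-241543805, minus strand (1 of 2 starts in the table), and Socs1 at chr10:5389324-5389573, plus strand. The element was found upstream of 10 of 18 called interferon-stimulated genes with a run in the table (55.6%) and 31 of 55 tested ones (56.4%), against 3.41% of all runs. The list shares count a gene once if any of its runs holds the element, whereas the share of all runs counts each run. RT1-S3 is from the antigen presentation list, where it was found for 1 of 4 called (25%) and 8 of 24 tested genes (33.3%). Socs1 is from the interferon pathway list, for which no share was counted. Such a share over all called genes is void, since 74.2% of them have a run in the table, fewer than 80%.
Gbp4: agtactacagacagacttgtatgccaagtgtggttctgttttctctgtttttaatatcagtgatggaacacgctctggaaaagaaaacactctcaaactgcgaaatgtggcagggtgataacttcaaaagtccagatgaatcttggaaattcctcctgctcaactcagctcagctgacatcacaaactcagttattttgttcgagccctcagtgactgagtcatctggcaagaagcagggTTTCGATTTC
RT1-S3: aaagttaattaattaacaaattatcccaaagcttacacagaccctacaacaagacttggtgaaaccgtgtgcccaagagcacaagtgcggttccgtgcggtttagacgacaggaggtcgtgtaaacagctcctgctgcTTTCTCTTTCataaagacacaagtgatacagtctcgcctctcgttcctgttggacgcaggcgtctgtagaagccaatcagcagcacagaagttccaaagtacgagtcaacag
Ifit1bl: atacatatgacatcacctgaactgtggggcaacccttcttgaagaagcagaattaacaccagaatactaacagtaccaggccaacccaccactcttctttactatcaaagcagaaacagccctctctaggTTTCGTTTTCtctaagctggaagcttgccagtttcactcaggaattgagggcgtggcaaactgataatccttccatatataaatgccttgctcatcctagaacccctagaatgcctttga
Socs1: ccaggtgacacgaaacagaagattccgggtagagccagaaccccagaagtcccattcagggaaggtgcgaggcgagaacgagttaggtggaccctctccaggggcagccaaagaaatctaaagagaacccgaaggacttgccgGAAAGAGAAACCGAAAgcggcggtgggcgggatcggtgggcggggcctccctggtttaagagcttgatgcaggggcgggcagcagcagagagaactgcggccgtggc

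Genes of energy metabolism moved in small numbers. Aldoc, a glycolytic aldolase, measured 198, 159.5 and 192 CPM in siNeg, 131, 124 and 143 in siNeg PE, 294, 339 and 332 in siSlc25a26 and 95.5, 74.8 and 62.9 in siSlc25a26 PE. It fell without overlap in both arms, from a higher to a lower level in the siSlc25a26-labelled arm (difference -1.58, SE 0.18, adjusted p = 0.000361). Slc2a4, the insulin-responsive glucose transporter, was the only glycolysis gene called higher (0.72, SE 0.21, adjusted p = 0.0423, called in 3 of 12 fits that left out a library), so that 1 of 34 was higher and 1 lower. Of 35 fatty acid oxidation genes, 3 were lower and 1, Fabp4, higher (11.4% called, against 5.5% of all genes tested). A negative difference was found for 31 of the 35, and their median difference was -0.20. Angptl4, a secreted inhibitor of lipoprotein lipase, measured 1.63, 0.648 and 1.25 CPM in siNeg, 0.995, 0.933 and 1.08 in siNeg PE, 12.8, 14.2 and 12.1 in siSlc25a26 and 3.90, 3.58 and 3.63 in siSlc25a26 PE. It overlapped with siNeg and fell in the other arm from a raised level (difference -1.58, SE 0.32, adjusted p = 0.00744). Hadh (-0.80, SE 0.17, adjusted p = 0.0105) and Acaa2 (-0.60, SE 0.16, adjusted p = 0.0304, called in 6 of 12), enzymes of mitochondrial β-oxidation, fell in both arms. Pdk4, the kinase that switches off pyruvate dehydrogenase, was the only one of 26 TCA cycle genes with a call (-0.79, SE 0.22, adjusted p = 0.0331, called in 4 of 12). Ppargc1a, the coactivator PGC-1α, rose with siNeg (0.33) and fell in the other arm (-0.50), with a difference of -0.83 (SE 0.17, adjusted p = 0.00805), and was the single call among 18 PGC-1, ERR and PPAR regulators. The called shares were 5.88% of the glycolysis, 3.85% of the TCA cycle and 5.56% of the regulator list, near the 5.5% of all genes tested.

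Subunits of the respiratory chain and of ribosomes had few calls. By edgeR 0 of 35 complex I genes, 0 of 42 genes of complexes II to V and 0 of 74 mitochondrial ribosomal protein genes were called in either direction, as by DESeq2 and limma-voom, with median differences of -0.07, 0.01 and -0.05. At an unadjusted p under 0.05 edgeR gave 0 higher and 0 lower, 0 higher and 2 lower, and 0 higher and 3 lower, in that order. Of 79 cytosolic ribosomal protein genes 75 had a positive difference and the median was 0.11 (0.05 to 0.24 above the median of all genes over all alternatives), below the line for a call. The single call, Rps19 (0.81, SE 0.23, adjusted p = 0.0385), belongs to a further table entry of that symbol at 7.47 to 24.84 CPM, which may share reads with the main gene, and was made in 3 of 12 fits that left out a library. Of 65 ribosome biogenesis genes 46 had a positive difference and Rrp12, which takes part in export of ribosomal subunits, was called (0.95, SE 0.12, adjusted p = 0.000501). Castor1, the arginine sensor of mTORC1, was the only one of 39 mTOR and translation genes (0.65, SE 0.17, adjusted p = 0.0303, 3 of 12 fits that left out a library). Of 5 Nap1l genes 0 were called by edgeR, DESeq2 or limma-voom (0 higher and 1 lower at an unadjusted p under 0.05 in edgeR).

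**Figure D4:**
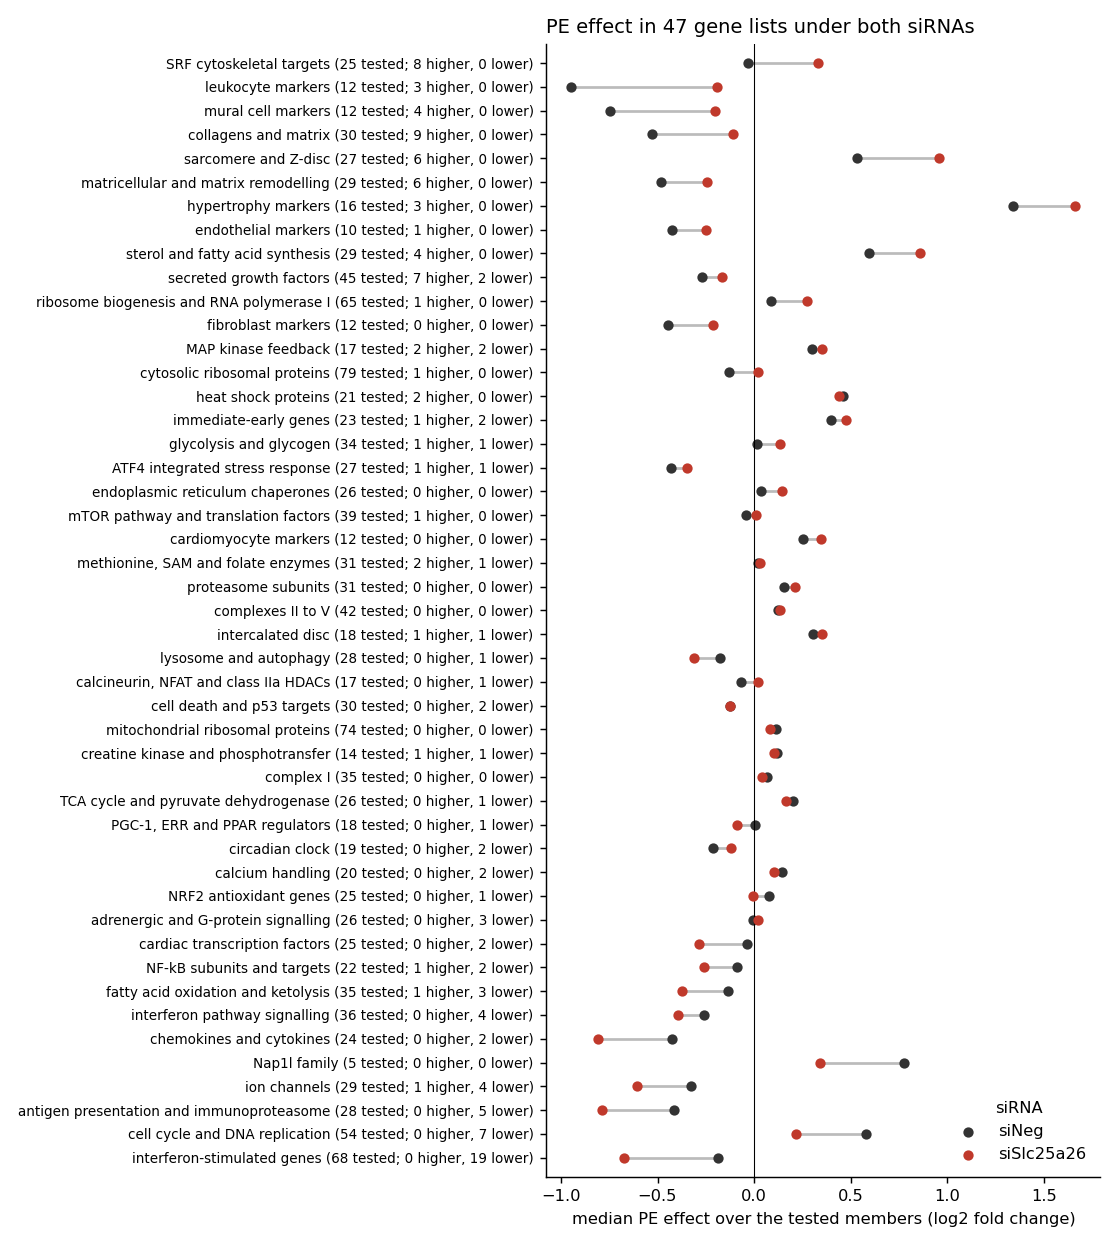
Median PE effect (x axis, log2 fold change) over the tested members of 47 gene lists with siNeg (dark) and in the siSlc25a26-labelled arm (red), sorted by the median difference. Labels give the genes tested and the number called with a higher or lower PE effect in the latter. SRF targets, leukocyte and mural cell markers and collagens lie at the top, interferon-stimulated and cell cycle genes at the bottom, and respiratory complexes in the middle.

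Lipid synthesis and stress genes added further calls. Of 29 sterol and fatty acid synthesis genes 4 were higher and 0 lower (13.8% called), with a median difference of 0.22 (0.16 to 0.30 above all genes over all alternatives). The number called higher was 0 to 12 over the alternatives that kept all libraries. Scd, stearoyl-CoA desaturase, measured 40.6, 48.9 and 33.3 CPM in siNeg, 129, 134 and 131 in siNeg PE, 22.2, 24.3 and 22.5 in siSlc25a26 and 116, 137 and 145 in siSlc25a26 PE. It rose without overlap in both arms (difference 0.85, SE 0.16, adjusted p = 0.00573). Fasn, fatty acid synthase (0.67, SE 0.069, adjusted p = 0.000207), also rose in both arms and rose more in the siSlc25a26-labelled one. The heat shock proteins Hspa1l (1.44, SE 0.28, adjusted p = 0.00662) and Hspb1, which protects the cytoskeleton (0.63, SE 0.13, adjusted p = 0.00819, called in 10 of 12 fits that left out a library), were 2 of 21 called higher (9.52%), with 0 lower. By edgeR 0 of 26 endoplasmic reticulum chaperones and 0 of 31 proteasome subunits were called, as by DESeq2 and limma-voom. At an unadjusted p under 0.05 edgeR gave 5 higher and 0 lower for the chaperones and 3 higher and 2 lower for the proteasome. In the ATF4 list of 27, Pycr1, of proline synthesis, was higher (0.66, SE 0.15, adjusted p = 0.0131, 10 of 12) and Slc6a9, a glycine transporter, lower (-0.67, SE 0.10, adjusted p = 0.002). Of 25 NRF2 genes Gsta4, a glutathione transferase, was lower (-0.62, SE 0.11, adjusted p = 0.00293, 9 of 12). The called shares of the ATF4 and NRF2 lists, 7.41% and 4%, were also near that of all genes (5.5%).

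The genes around S-adenosylmethionine, the substrate of the targeted carrier, had a median difference of 0.02, against -0.05 over all genes tested. They gave 3 calls among 31 (9.68%, against 5.5% of all genes tested), including the targeted gene itself. So few calls are not a result about the list. Besides Slc25a26 the called genes were both enzymes of creatine synthesis, a pathway that uses methyl groups. Gatm, its first enzyme, measured 13.01, 12.02 and 10.6 CPM in siNeg, 28.8, 29.3 and 23.8 in siNeg PE, 6.17, 7.34 and 6.33 in siSlc25a26 and 27.3, 29.6 and 30.4 in siSlc25a26 PE. Its PE libraries reached overlapping levels in both arms from a lower start in siSlc25a26, with a difference of 0.93 (SE 0.15, adjusted p = 0.00233). Gamt, the methyltransferase that completes creatine, measured 52.9, 52.9 and 48.6 CPM in siNeg, 16.5, 21.6 and 20.6 in siNeg PE, 40.2, 39.9 and 40.9 in siSlc25a26 and 10.03, 9.46 and 7.54 in siSlc25a26 PE, a fall in both arms that went further in siSlc25a26 PE (difference -0.77, SE 0.15, adjusted p = 0.0068). Among 14 creatine kinase and phosphotransfer genes, Ckb, brain creatine kinase, was higher (0.90, SE 0.092, adjusted p = 0.000196) and Ak4, a mitochondrial adenylate kinase, lower (-0.69, SE 0.14, adjusted p = 0.0072). These calls made up 14.3% of that list, and its median difference was -0.06.

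Genes of signalling feedback and transcription split in direction. Among 23 immediate-early genes, Nr4a3, an orphan nuclear receptor, rose more (1.17, SE 0.19, adjusted p = 0.00278), Junb, an AP-1 subunit, turned from rise to fall (-0.68, SE 0.11, adjusted p = 0.00272), and Arc, known from neurons, rose with siNeg only (-0.73, SE 0.19, adjusted p = 0.028, called in 5 of 12 fits that left out a library). Of 17 MAP kinase feedback genes, the phosphatases Dusp4 (0.97, SE 0.26, adjusted p = 0.0308) and Dusp8 (0.75, SE 0.21, adjusted p = 0.0394) rose more, Dusp5, a nuclear ERK phosphatase, fell in the siSlc25a26-labelled arm only (-0.75, SE 0.13, adjusted p = 0.00395) and Spred1, a Ras inhibitor, rose with siNeg only (-0.61, SE 0.18, adjusted p = 0.045). The calls of Dusp4, Dusp8 and Spred1 were made in 5, 2 and 3 of 12 such fits. Hdac9, a class IIa deacetylase that represses MEF2, was lower (-0.61, SE 0.15, adjusted p = 0.0226, 9 of 12) and the single call among 17 calcineurin, NFAT and deacetylase genes. Of 25 cardiac transcription factors, Irx4, a ventricular Iroquois factor (-0.69, SE 0.14, adjusted p = 0.00888, 11 of 12), and Irx3, of the conduction system (-0.65, SE 0.13, adjusted p = 0.00712, 10 of 12), fell more. Of 19 circadian clock genes 2 were lower and 0 higher, among them Bhlhe41, a repressor of the clock (-0.62, SE 0.11, adjusted p = 0.0048, 11 of 12). Pycard, the inflammasome adaptor (-1.09, SE 0.14, adjusted p = 0.000687), and Bcl2l11, the death effector Bim (-0.82, SE 0.16, adjusted p = 0.00611), fell more among 30 cell death genes. Fbxo32, the muscle ubiquitin ligase atrogin-1, was the only one of 28 lysosome and autophagy genes called (-1.06, SE 0.21, adjusted p = 0.00755). The calls made up 5.88% of the calcineurin list, 6.67% of the cell death list, 8% of the cardiac transcription factors and 3.57% of the lysosome list, against 5.5% of all genes tested. Shares this near the background are not a result about these lists. For the clock genes the share was 10.5%, for the immediate-early genes 13% and for the MAP kinase feedback genes 23.5%.

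**Figure D5:**
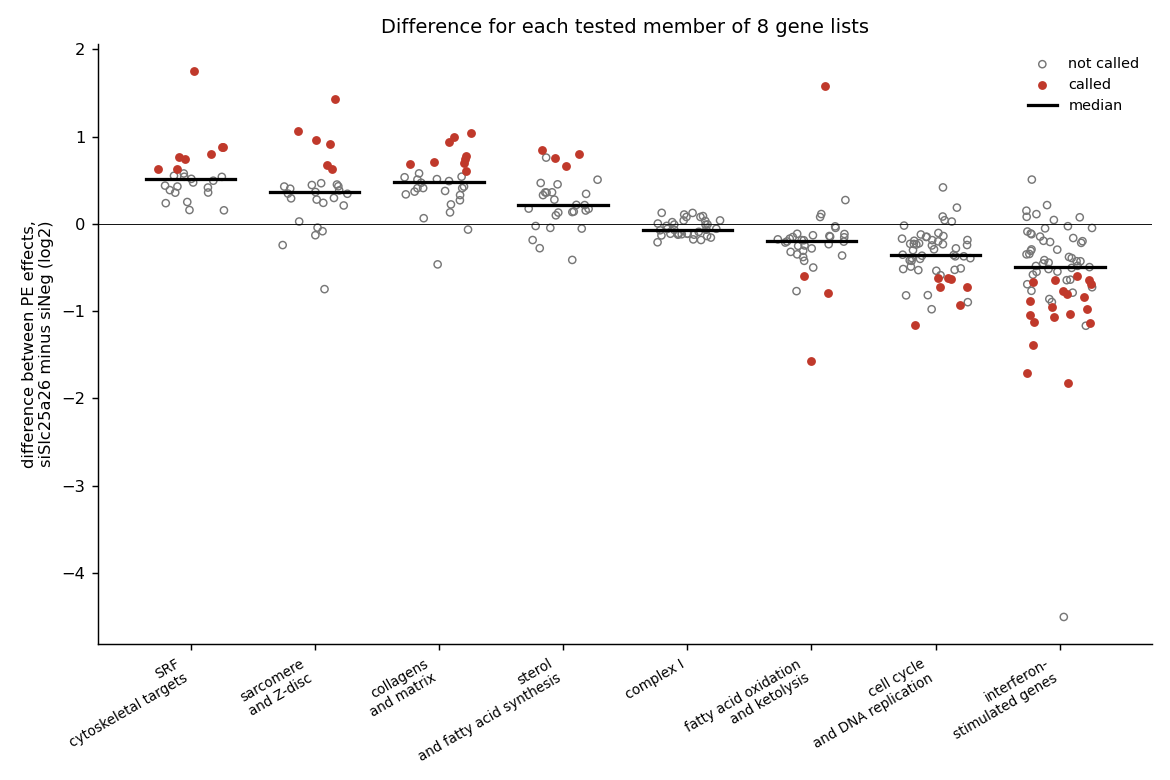
Difference between PE effects (y axis, log2, siSlc25a26-labelled arm minus siNeg arm) for every tested member of 8 gene lists. Filled points were called, open points were not, and black lines are medians. All 25 SRF targets lie above 0, 49 of 54 cell cycle genes and 61 of 68 interferon-stimulated genes lie below 0, and complex I genes lie close to 0. An interferon-stimulated gene without a call lies far below the others.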

How the data were processed

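RNA-seq libraries of NRVMs were deposited as 2 tables of the whole series, which name each of the 12 libraries by its group and replicate number as the labels do. The authors deposited estimated counts per gene, of which 20.8% to 21.9% per library were not whole, and FPKM values. Reads were sequenced at the Beijing Genomics Institute. The submitters' processing notes name HISAT, Bowtie2 and Rnor_6.0, without role or version, and the counting tool and its strand setting are not given in the sources used here.

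Estimated counts were rounded. The filterByExpr function of edgeR kept 14097 of 18469 genes, libraries were scaled with TMM factors, and one quasi-likelihood model over the 4 groups was fitted with edgeR 4.0.16 in R 4.3.3. The design had assumed whole counts, and the same test was kept. The difference between PE effects was tested as a contrast with Benjamini-Hochberg adjustment. An opposite response required PE effects of opposite sign with an adjusted p-value under 0.05 in each arm. Of the other called genes, stronger ones had that p-value and the larger absolute PE effect in the siSlc25a26-labelled arm. Weaker ones had that p-value and the larger absolute PE effect with siNeg. Rise or fall refers to the arm with the larger effect. The remaining arm had no condition on sign and may show no response. The test was checked on simulated data. Total counts of 24770972 to 28709049 set a floor of 0.0993 to 0.120 CPM for 3 counts, and intervals that rest on counts cover counting error only. Between libraries of the same group chi-square per gene was 5.47 or more, so none repeats another.

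Named genes were Slc25a26, Nppa, Nppb, Acta1, Myh6, Myh7 and Nap1l5, then the 4 called genes with the largest difference per response class and direction (no fewer than 50 counts in each library of the group with the highest mean, and no provisional symbol). For each of 47 gene lists every called member was named where 5 or fewer were called, and otherwise the 3 with the largest difference. Other called members of long lists are given by their difference alone and were chosen after their values were seen. The comparison, the genes and the lists were chosen with earlier results of these data known. A few called genes are counted in these lists but not reported here by name. Gene identifiers were matched to RefSeq for 91.8% of the table. Upstream sequences and their coordinates come from RefSeq on GRCr8, a build other than that of the deposited tables.

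Alternatives were DESeq2 1.42.0 (test or size factors), limma 3.58.1 with voom, limma on log2 FPKM with a pseudocount of 1 or 0.1, leaving out the filter, a mean of at least 50 counts, the replicate number as a block, no fold threshold, glmTreat, and each library left out in turn.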

Additional observations from a re-analysis of the deposited data

Results flagged for a closer look

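In total 305 genes had a higher and 471 a lower PE effect in the siSlc25a26-labelled arm, by the test of the difference between both PE effects itself (edgeR, 3 libraries per group). Named genes with a called difference follow by response class, each with its log2 difference. The siSlc25a26 PE label was not borne out by the Slc25a26 level, which limits all of them. No explanation was tested. Those that rose in the siSlc25a26-labelled arm, and rose less or did not rise with siNeg, were Dusp26 2.21, Rai2 2.14, Bean1 2.10, Ankrd23 1.99, Acta1 1.95, Cnn1 1.75, Hbegf 1.57, Hspa1l 1.44, Ctgf 1.43, Cavin4 1.42, Fhl1 1.40, Nr4a3 1.17, Fstl3 1.16, Cyr61 1.12, Cspg4 1.10, Slc25a26 1.06, Col15a1 1.04, Dusp4 0.97, Rrp12 0.95, Gatm 0.93, Ctnna1 0.92, Ckb 0.90, Tln1 0.88, Scd 0.85, Ptgs2 0.84, Rps19 0.81, Dusp8 0.75, Slc2a4 0.72, Fasn 0.67 and Hspb1 0.63. Those that fell in that arm, and fell less or did not fall with siNeg, were Faap100 -3.28, Misp -2.74, Pik3r6 -2.52, Reg3b -2.42, Scn4b -1.69, RT1-T24-1 -1.63, Aldoc -1.58, Angptl4 -1.58, Mx1 -1.39, Pycard -1.09, Fbxo32 -1.06, Socs1 -1.03, Gja5 -1.03, Vcam1 -0.90, RT1-T24-4 -0.86, Socs3 -0.86, Adrb1 -0.84, Kcnj2 -0.82, Adra1d -0.82, Bcl2l11 -0.82, Adra1b -0.81, Hadh -0.80, Pdk4 -0.79, Gamt -0.77, Dusp5 -0.75, Irf1 -0.72, Ak4 -0.69, Irx4 -0.69, Psmb9 -0.69, Slc6a9 -0.67, Irx3 -0.65, Nlrc5 -0.63, Bhlhe41 -0.62, Hrc -0.61, Cacna2d2 -0.61, Hdac9 -0.61, Acaa2 -0.60 and Camk2d -0.60. Those that rose with siNeg, and rose less or did not rise in the other arm, were Ddx52 -7.91, Poln -3.30, Pnoc -2.37, Tmem100 -2.27, Ifit1bl -1.71, Top2a -1.15, Ccne2 -0.93, Cxcl1 -0.76, Arc -0.73, Ect2 -0.72, Ifih1 -0.65, Gsta4 -0.62 and Spred1 -0.61. Those that fell with siNeg, and fell less or did not fall in the other arm, were BGIG10116_30870 2.81, Kcnt1 2.16, Kcnk1 1.63, Fabp4 1.58, Trim66 1.48, Ltbp2 1.27, Tnc 1.24, Myom2 1.06, C1qa 1.05, Itgam 1.03, Col6a3 1.000, Acta2 0.88, Csf1r 0.82, Flt1 0.70, Pycr1 0.66, Castor1 0.65 and Notch3 0.59. Those that rose with siNeg and fell in the siSlc25a26-labelled arm were Triap1 -6.66, MGC108823 -2.32, Dgkb -2.04, Foxf1 -2.0, Gbp4 -1.83, Kcnd2 -1.77, RT1-S3 -1.53, Birc3 -0.92, Ppargc1a -0.83 and Junb -0.68. Those that fell with siNeg and rose in that arm were Cgn 1.63, Actn1 1.41, Tgfb3 1.28, Zfp469 1.25, Tpm2 0.96 and Col12a1 0.94. A single gene, Cxcl6 with -3.88, belonged to no class. The fitted differences of Ddx52, Cxcl6 and Triap1 rest on libraries at or near 0 counts and are no measure of size.

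Of the 118 named genes called, 35 lost the call without at least 1 library. BGIG10116_30870 lost it without siNeg 2, siNeg PE 2 and siSlc25a26 2 (differences over all 12 fits 2.51 to 3.53). Bhlhe41 lost it without siSlc25a26 2 (differences over all 12 fits -0.71 to -0.53). Cacna2d2 lost it without siNeg 2, siNeg PE 3 and siSlc25a26 1 (differences over all 12 fits -0.65 to -0.55). Flt1 lost it without siNeg PE 3 (differences over all 12 fits 0.58 to 0.80). Gsta4 lost it without siNeg PE 2, siSlc25a26 PE 3 and siSlc25a26 2 (differences over all 12 fits -0.67 to -0.55). Hdac9 lost it without siNeg 1, siNeg PE 3 and siSlc25a26 PE 1 (differences over all 12 fits -0.71 to -0.51). Hspb1 lost it without siNeg 1 and siNeg PE 3 (differences over all 12 fits 0.53 to 0.71). Irx3 lost it without siNeg PE 3 and siSlc25a26 PE 3 (differences over all 12 fits -0.75 to -0.56). Irx4 lost it without siSlc25a26 PE 3 (differences over all 12 fits -0.83 to -0.57). Pycr1 lost it without siNeg 1 and siSlc25a26 3 (differences over all 12 fits 0.57 to 0.74). Socs1 lost it without siNeg PE 3 (differences over all 12 fits -1.18 to -0.87). The others kept it in fewer than 9 of 12 fits. These are given with the range of the difference and the libraries without which the call was kept: Acaa2 -0.73 to -0.51 (siNeg 1, siNeg 3, siNeg PE 1, siNeg PE 2, siSlc25a26 3 and siSlc25a26 PE 1), Arc -0.84 to -0.62 (siNeg 2, siNeg 3, siNeg PE 1, siSlc25a26 1 and siSlc25a26 PE 1), C1qa 0.90 to 1.22 (siSlc25a26 3 and siSlc25a26 PE 1), Camk2d -0.72 to -0.49 (siNeg 2, siNeg 3, siNeg PE 1, siNeg PE 2, siSlc25a26 1, siSlc25a26 PE 1 and siSlc25a26 PE 3), Castor1 0.55 to 0.74 (siNeg 3, siNeg PE 1 and siSlc25a26 PE 2), Ccne2 -1.13 to -0.81 (siNeg 2, siNeg PE 1, siSlc25a26 1 and siSlc25a26 PE 3), Cxcl6 -5.75 to -3.43 (siNeg 1, siNeg PE 1, siSlc25a26 3 and siSlc25a26 PE 1), Dusp4 0.82 to 1.12 (siNeg 3, siNeg PE 1, siNeg PE 2, siSlc25a26 3 and siSlc25a26 PE 1), Dusp8 0.56 to 0.88 (siNeg PE 1 and siNeg PE 2), Ect2 -0.87 to -0.61 (siNeg 3, siNeg PE 1, siSlc25a26 3 and siSlc25a26 PE 3), Fabp4 1.27 to 1.79 (siNeg 3 and siSlc25a26 PE 3), Hrc -0.67 to -0.53 (siNeg 2, siNeg 3, siNeg PE 1, siNeg PE 2, siSlc25a26 1 and siSlc25a26 PE 1), Ifih1 -0.77 to -0.49 (siNeg 3, siNeg PE 1 and siSlc25a26 PE 3), Itgam 0.83 to 1.19 (siNeg 3, siNeg PE 1, siSlc25a26 3, siSlc25a26 PE 1 and siSlc25a26 PE 2), Kcnk1 1.48 to 1.93 (siNeg 1, siNeg 3, siNeg PE 1, siSlc25a26 1 and siSlc25a26 PE 3), Kcnt1 1.61 to 3.02 (siNeg 2, siNeg PE 1 and siSlc25a26 PE 1), Mx1 -1.68 to -0.76 (siNeg PE 2, siNeg PE 3 and siSlc25a26 3), Nlrc5 -0.80 to -0.48 (siNeg 1 and siSlc25a26 PE 1), Notch3 0.49 to 0.70 (siNeg 2, siNeg 3, siNeg PE 1, siSlc25a26 1, siSlc25a26 3 and siSlc25a26 PE 3), Pdk4 -0.95 to -0.65 (siNeg 3, siNeg PE 1, siSlc25a26 3 and siSlc25a26 PE 1), Pnoc -2.77 to -1.95 (siNeg 3, siNeg PE 1, siNeg PE 3, siSlc25a26 1 and siSlc25a26 PE 1), Rps19 0.69 to 1.04 (siNeg 3, siNeg PE 1 and siSlc25a26 PE 1), Slc2a4 0.50 to 0.87 (siNeg 3, siNeg PE 1 and siSlc25a26 1) and Spred1 -0.75 to -0.51 (siNeg 3, siNeg PE 1 and siSlc25a26 PE 3).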

How the results depend on the processing

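Of 2810 alternative values for named genes, 2410 kept their direction and their side of the threshold, 388 kept only the direction and 12 reversed. The reversals were Kcnt1 (-0.36 on log2(FPKM + 1) without a filter) and genes without a call: Myh7 (-0.016 on each log2 FPKM scale), Nap1l5 (0.056 without siSlc25a26 replicate 3, and -0.48 at the other end without siNeg replicate 3), Nppa (0.043 without siSlc25a26 replicate 1, lowest -0.31) and Nppb (0.020 with limma-voom, 0.018 with the replicate block, and -0.35 to 0.13 without single libraries). The cause was not tested.

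The 305 higher and 471 lower calls became 161 higher on log2(FPKM + 1), 195 higher and 712 lower on log2(FPKM + 0.1), 152 higher on log2(FPKM + 1) without a filter, 773 and 808 without a fold threshold, and 24 and 29 with glmTreat, which tests against the fold line and so calls fewer. DESeq2 called 330 and 463, limma-voom 289 and 450. By class, log2(FPKM + 1) gave 97 stronger rises, 49 weaker falls and 15 genes that fell with siNeg and rose in the other arm. On log2(FPKM + 0.1) there were 113 stronger rises, 454 stronger falls and 60 weaker falls, and on log2(FPKM + 1) without a filter 94 stronger rises, 43 weaker falls and 15 of the opposite class. Without a fold threshold these classes held 460 stronger rises, 492 stronger falls, 248 weaker rises, 258 weaker falls and 52 genes that turned from fall to rise. With glmTreat they held 16, 17, 7, 7 and 0, and 1 gene turned from rise to fall.

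Without single libraries the higher calls numbered 220 to 326, lower 301 to 646, stronger rises 127 to 197, stronger falls 189 to 324, weaker rises 68 to 269, weaker falls 54 to 100, turns from rise to fall 40 to 76 and from fall to rise 18 to 35. Counts moved over 1.5 times without siNeg PE replicate 3 (301 lower, 189 stronger falls, 68 weaker rises), siNeg replicate 3 (269 weaker rises), siNeg replicate 1 (54 weaker falls, 18 turns from fall to rise), siNeg PE replicate 1 (228 weaker rises), siNeg PE replicate 2 and siSlc25a26 PE replicate 2 (78 weaker rises each) and siSlc25a26 replicate 2 (69 weaker rises, 55 weaker falls).

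The replicate numbers are shared between groups. Of 18 correlations between the deviations of same-numbered libraries (-0.0913 to 0.217) 6 were over 0.1, and 7 of 12 libraries correlated best with their own number. All 6 lay among siNeg, siNeg PE and siSlc25a26 PE, where every such correlation was positive (0.00943 to 0.217). Those with untreated siSlc25a26 ran from -0.0913 to 0.0661. What the numbers stand for was not tested. With the replicate block 945 genes were called, 326 higher and 619 lower, 765 of them among the 776, weaker rises numbered 222, and no named gene changed its call. Depth limits genes near the 3-count floor, such as Pnoc, Misp and Ddx52 in untreated siNeg libraries.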
